A study of Arabidopsis thaliana with 12 samples.

Results

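Roots of a pdx1.3 knockout of Arabidopsis thaliana were compared with roots of the Col-0 wild type (WT), over 6 arrays of the 12 in the series and all 22746 probe sets that are not array controls. The pdx1.3 roots and the WT roots have 3 biological replicates each, and both come from seedlings of the Col-0 ecotype harvested at 10 days. All plants had grown on half-strength Murashige and Skoog medium with 1% sucrose and without vitamin B6, so both genotypes lacked an outside supply of the vitamin, in 16 h light at 22 °C and 8 h darkness at 18 °C. Leaves and roots of the seedlings were separated at harvest. The 6 leaf arrays serve here to test whether a change in roots differed from that in leaves. They also enter the fit, so the root p-values rest on a spread estimated from all 12 arrays. The members were chosen by the sample titles. A genotype label on each sample states the reverse of its title, and the level of PDX1.3 given below follows the titles. One knockout line was studied, and its allele is not given in the labels. An effect of the gene and one of that line cannot be told apart. How the 3 samples of a group were obtained (separate plates, pools of plants) is not described. The p-values measure the spread between such samples within the groups, leaf groups included.

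Vitamin B6 is a group of interconvertible compounds, of which pyridoxal 5'-phosphate is the cofactor of many enzymes of amino acid metabolism, among them aminotransferases, decarboxylases and enzymes of sulphur amino acid and ethylene precursor synthesis. Plants make it de novo with the PDX1 and PDX2 proteins, in which PDX2 provides ammonia and PDX1.1 and PDX1.3 are the catalytic PDX1 proteins, whereas PDX1.2 is a non-catalytic relative. Knockouts of PDX1.3 are known for short roots on medium without the vitamin, and salvage enzymes such as PDX3, SOS4 and PLR1 interconvert the forms that are taken up or recycled.

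One Affymetrix ATH1 array was used per sample. It reads a gene through several short probes, summarised as a linear signal intensity with a call of present, marginal or absent. Between 70.9 and 72.8% of the probe sets were present on the 6 root arrays. The median root signal was 37.8. The third pdx1.3 root array lay apart from the other two. Correlations of its log2 signals were taken across 13882 probe sets with a mean root signal above 20. They were r = 0.9697, 0.9797 and 0.9712 with WT roots 1, 2 and 3. With pdx1.3 roots 1 and 2 they were 0.9711 and 0.955, and those pdx1.3 arrays correlated with each other at 0.9838. Probe sets are not independent replicates, and these correlations only describe the arrays. On the first principal component of the root arrays (46.7% of the variance) the third pdx1.3 array had a score of 7.08, against −21.4 and −29.53 for the other pdx1.3 arrays and 9.73 to 17.92 for WT. Its actin 3'/5' ratio, which is lower for intact RNA, was 6.59. This ratio was 2.97 and 3.99 in the other pdx1.3 roots and 4.45 to 6.4 in WT roots. The GAPDH 3'/5' ratio of the third pdx1.3 array was 1.18, inside the WT range of 1.1 to 1.27, with 1.06 and 1.16 in the other pdx1.3 roots. For each gene below the share of the change that this array shows was therefore computed as its distance from the WT mean divided by the distance of the mean of replicates 1 and 2, both on log2(signal + 16), so that 100% means a change of the same size and 0% a level at the WT mean.

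The knocked-out gene was measured first. PDX1.3 (AT5G01410) had signals of 116, 95.8 and 82.1 in pdx1.3 roots, against 264, 282 and 282 in WT roots. All 3 mutant roots lay below all 3 WT roots, and the third mutant root had the lowest signal of the 6, a share of 124.2%. The log2 change was −1.37 (SE 0.18, limma, adjusted p = 0.00243), and −1.27 without the third mutant root (adjusted p = 0.00641). Its probe set was called present on all 3 mutant root arrays, so that a signal above background stayed in the line. In leaves the change was larger (log2 −3.80), and the organs differed (adjusted p = 0.000665). Of 6 vitamin B6 genes measured by a probe set of their own, PDX1.3 was the only one called. PDX1.2, PDX2, PDX3, SOS4 and PLR1 had log2 changes of 0.09, −0.10, −0.04, −0.15 and −0.05, with adjusted p = 1 for each. The probe set of PDX1.1 names a second locus as well and was not used.

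Across the array, 184 of 22746 probe sets (0.809%) were called at an adjusted p under 0.05: 113 (0.497%) were higher in pdx1.3 roots and 71 (0.312%) were lower there. At least 2-fold changes on the log2(signal + 16) scale were called for 100 (0.44%), 67 of them higher and 33 lower. In all 184 the values of the genotypes did not overlap, which 2522 probe sets (11.1%) also showed. The median log2 change over all probe sets was 0.01.

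The third mutant root showed a smaller change than the other two in most of these probe sets, and its signal lay in the WT range in none of the 184. Among the 113 probe sets called higher, it was the mutant root nearest to WT in 76, with a median share of 79.5% (quartiles 63.1 and 94.2%), and among the 71 called lower it was nearest in 51, with a median share of 74.0% (quartiles 52.4 and 94.8%). Its share was under 50% in 9 of the probe sets called higher and in 15 of those called lower. The log2 change of 144 of the 184 was larger in size without this array. Leaving it out, 384 probe sets (1.69%) were called, 179 higher (0.787%) and 205 lower (0.901%). Of the 184, 168 were among them and 16 were lost. The 216 called only without it comprised 76 higher and 140 lower probe sets, and in 13 and 53 of these its signal lay inside the WT range. More probe sets were called higher than lower with the third mutant root, and more lower than higher without it. Calls also depended on the other arrays: of 175 called probe sets that name 1 locus, 107 and 88 lost their call without the first or second mutant root, 15 without the third, and 75, 91 and 63 without the first, second or the third WT root. Where a gene named below lost its call in this way, the arrays and the adjusted p are given. A fit of the 6 root arrays alone, which estimates the spread from fewer arrays, called 61 probe sets. Of 53 called genes that the naming rule took beside PDX1.3, 26 were not called there (adjusted p 0.0518 to 0.21). They were THAA1, THAA2, AT1G49570, AT2G41480, AT5G64110, AT2G43590, ALMT1, AT3G16530, DIR1, RALFL27, AT1G51830, AT2G28970, AT5G49770, GGCT2;1, F6'H1, IRT1, NAS2, CYP82C4, AOS, AGP30, AT1G26240, WRKY38, WRKY54, MYB37, MYB39 and AT2G22750.

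**Figure D1:**
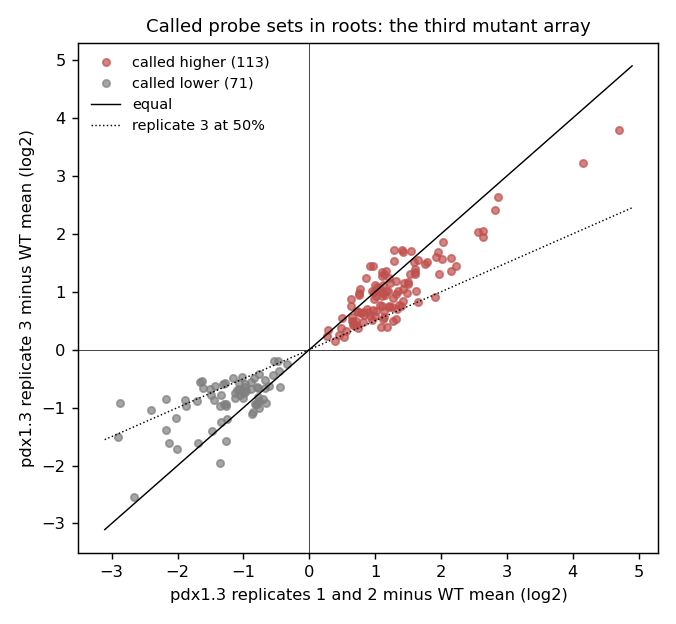
Change in the third pdx1.3 root against the mean change in the first and second, both as the difference from the WT root mean on log2(signal + 16), for the 184 called probe sets, 1 point each. The solid line marks equal change and the dotted line a share of 50%. Most points lie between the lines, 9 of the higher and 15 of the lower lie below 50%, and none lies at or past the WT mean.

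Large called rises included those of 2 root triterpene pathways. Triterpenes are made from the sterol precursor 2,3-oxidosqualene by cyclases, then oxidised by cytochromes P450 and acylated. In Arabidopsis the genes for marneral and for thalianol lie in 2 clusters of adjacent genes on chromosome 5, and both are expressed mainly in roots. All 3 measured marneral genes and all 5 measured thalianol genes were called higher, against 0.486% of 21420 loci called higher when each locus is read from 1 probe set (0.817% called in either direction). The groups did not overlap in any of the 8. Both lists, like the other lists below, were chosen with earlier results of these data known. With a constant of 1 in place of 16 before log2, 2 of the 3 and 2 of the 5 were called.

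MRN1 (AT5G42600), the marneral synthase that forms the triterpene aldehyde, had signals of 525, 459 and 253 in pdx1.3 roots, against 1.8, 4.29 and 4.46 in WT roots, where the probe set was absent on all 3 arrays. Such a probe set has only an upper bound in WT, taken per array as the 95th percentile of the signals called absent (9.45 to 10.9) where its own signal is lower. Against that bound MRN1 was at least 38.4-fold higher in pdx1.3 roots, with a fitted log2 change of 4.40 (SE 0.20, adjusted p = 7.1e-07). Of the mutants, the third had the lowest signal, with a share of 80.6%. CYP705A12 (AT5G42580), a P450 of the cluster, had 207, 146 and 147 in pdx1.3 roots, against 6.14, 17.2 and 8.19 in WT roots (log2 change 2.79, SE 0.17, adjusted p = 9.21e-06). CYP71A16 (AT5G42590), the P450 that oxidises marneral products, had 471, 440 and 298 in pdx1.3 roots, against 41.4, 75.5 and 67.3 in WT roots (log2 change 2.44, SE 0.22, adjusted p = 0.000143). The share of the third root was 92.4% for CYP705A12 and 77.7% for CYP71A16.

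The thalianol genes were present on all 3 WT root arrays and had smaller log2 changes. THAS1 (AT5G48010), thalianol synthase, had 1352, 1297 and 756 in pdx1.3 roots, against 312, 278 and 266 in WT roots (log2 change 1.89, SE 0.20, adjusted p = 0.000488). At 63.1%, the share of the third mutant root was the lowest of the 8 genes. THAH (AT5G48000), the P450 that hydroxylates thalianol, had 1099, 1132 and 903 in pdx1.3 roots, against 435, 416 and 352 in WT roots (log2 change 1.34, adjusted p = 0.000278). THAD (AT5G47990), the P450 that adds a double bond, had 876, 764 and 671 in pdx1.3 roots, against 234, 269 and 192 in WT roots (log2 change 1.67, adjusted p = 0.000274). The acyltransferases modify the oxidised product. THAA1 (AT5G47980) had 139, 110 and 93.6 in pdx1.3 roots, against 46.1, 44.5 and 30.6 in WT roots (log2 change 1.21, adjusted p = 0.00895), and THAA2 (AT5G47950) had 177, 132 and 117, against 66.4, 54.3 and 33.9 (log2 change 1.24, adjusted p = 0.0133). Both stayed called without the third mutant root and lost their calls without the first (adjusted p = 0.0588 for THAA1 and 0.079 for THAA2).

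**Figure D2:**
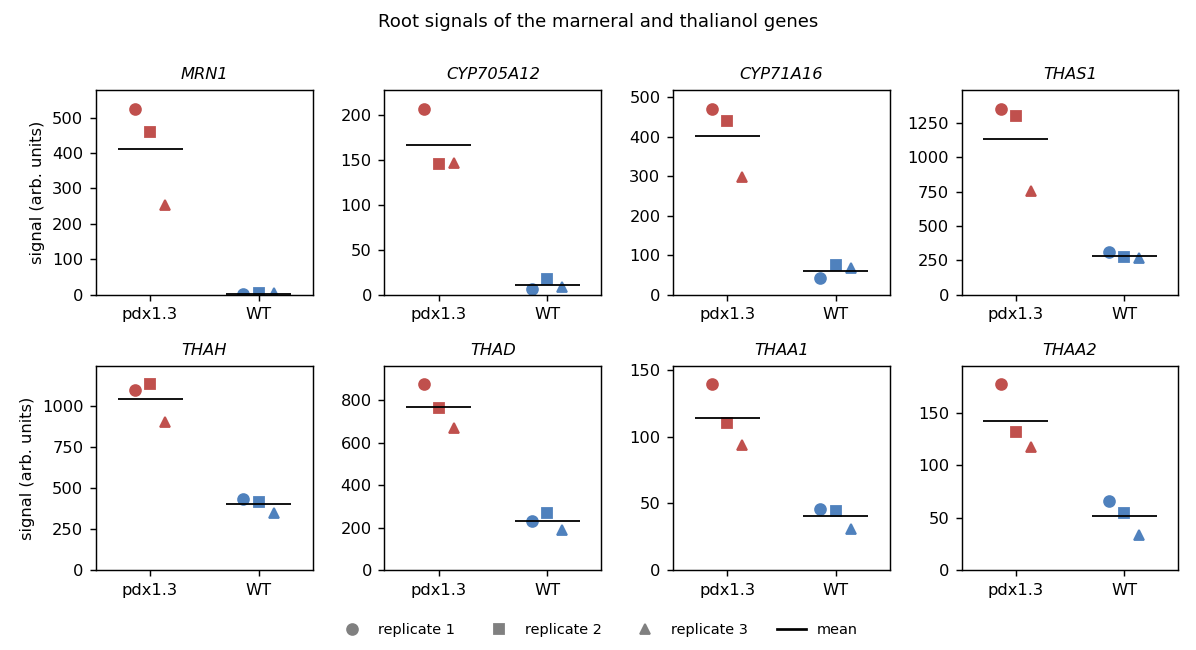
Signal (linear, axes from 0) of the 3 marneral genes (MRN1, CYP705A12, CYP71A16) and the 5 thalianol genes (THAS1, THAH, THAD, THAA1, THAA2) in each root array, pdx1.3 left and WT right, with circle, square and triangle for replicates 1, 2 and 3 and a line at the mean of 3. Every pdx1.3 root lies above every WT root in all 8 panels, and the triangle of pdx1.3 is the lowest of its group in 7 of them, all but CYP705A12.

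Genes beside the clusters did not pass the test. Among 12 measured neighbours on the outer sides of the clusters none was called, and their log2 changes lay between −0.13 and 0.48. RABA4C and AT5G47970, which lie between thalianol genes, had log2 changes of 0.08 and 0.29 and were not called. AT1G66800, which on chromosome 1 encodes a reductase of the thalianol pathway, had 348, 278 and 256 in pdx1.3 roots, against 66.2, 86.1 and 55.2 in WT roots (log2 change 1.87, SE 0.17, adjusted p = 0.000143, share 86.3%). SDR4, a second reductase of that pathway, was chosen after its values were seen and had 1027, 924 and 745 in pdx1.3 roots, against 481, 470 and 274 in WT roots (log2 change 1.14, adjusted p = 0.0221, and 0.145 and 0.0984 without the first or second mutant root). None of 10 other triterpene cyclases was called (log2 changes −0.26 to 0.18). Of 17 genes of sterol and squalene synthesis 1 was called higher (background 0.486% of loci). It was HMG1, a form of the enzyme that makes mevalonate, also chosen after its values were seen. HMG1 had 1088, 1157 and 641 in pdx1.3 roots, against 487, 480 and 494 in WT roots (log2 change 0.91, adjusted p = 0.0464). The third mutant root showed 32.7% of that change, and the call was lost without any other 1 of the root arrays (adjusted p 0.129 to 0.252). The median log2 change of the 17 was 0.07.

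Some called loci outside the marneral and thalianol clusters also stood side by side. Of 173 called nuclear protein-coding loci, 21 stood beside another called locus, in 12 pairs, and every pair moved in 1 direction. Over all loci, 0.817% were called in either direction. How often adjacent loci share a direction over all loci was not computed, so the direction of the pairs has no background. Of these pairs, 5 lay within the marneral and thalianol clusters. The others included the annexin genes ANNAT4 and ANNAT3 (log2 changes 1.38 and 1.27), named here after their values were seen, of which ANNAT4 lost its call without the first mutant root (adjusted p = 0.0647). Such pairs can be tandem copies whose probes report both genes. Each locus here was read from a probe set that names it alone, and whether its probes still report a neighbour was not tested. By chromosome, with 1 probe set per locus, 1.19% of the loci of chromosome 5 were called, the marneral and thalianol genes among them. For the other 4 nuclear chromosomes it was 0.616 to 0.799%.

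Other named genes with large called rises had varied functions. AT5G04120, a member of the phosphoglycerate mutase family, had 1005, 787 and 456 in pdx1.3 roots, against 22.6, 58.4 and 29.1 in WT roots (log2 change 3.85, SE 0.27, adjusted p = 1.93e-05). The share of the third mutant root was 77.4%, and no mutant root approached the WT range. AT5G41280, of unknown function, had 210, 305 and 151 in pdx1.3 roots, against 22.8, 33.9 and 25.6 in WT roots (log2 change 2.41, adjusted p = 0.00011). ARD3, an acireductone dioxygenase of the methionine salvage cycle that recycles the methylthio group, had 805, 1000 and 619 in pdx1.3 roots, against 177, 123 and 124 in WT roots (log2 change 2.38, SE 0.20, adjusted p = 0.00011). ARD3 was lower in pdx1.3 leaves (log2 change −0.83, adjusted p = 0.0259), and the organs differed by 3.21 on the log2 scale (adjusted p = 0.0003). It was the 1 member called of 12 methionine cycle genes measured (background 0.486% of loci higher).

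AT1G49570, a class III peroxidase, had 729, 908 and 464 in pdx1.3 roots, against 82.1, 208 and 237 in WT roots (log2 change 1.97, adjusted p = 0.00943). Its call was lost without the first or second mutant root (adjusted p = 0.0647 and 0.054). AT4G31330, a protein of unknown function, had 307, 344 and 213 in pdx1.3 roots, against 69.8, 72.6 and 43.4 in WT roots (log2 change 1.96, adjusted p = 0.000561). AT5G19110, annotated as related to an extracellular dermal glycoprotein, had 369, 439 and 291 in pdx1.3 roots, against 76.1, 76.8 and 113 in WT roots (log2 change 1.87, adjusted p = 0.00112). In all 3 of these genes the third mutant root was the lowest of the mutants, with shares of 64.6, 73.4 and 77.9%.

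Jasmonate is a lipid-derived hormone of wounding and defence. JAZ proteins repress its response and are themselves induced by it, and a set of oxygenases inactivates the hormone. Of 24 measured jasmonate genes, 4 were called higher (background 0.486% of loci) and none lower in pdx1.3 roots. A log2 change above 0 was seen in 23, and the median was 0.50, against 0.01 over all probe sets. In 15 of the 24 the mutant roots lay above the WT roots without overlap, against 5.77% of all probe sets. Leaving out the third mutant root, 5 were called higher (background 0.784%) and the median was 0.46. JAZ10, a repressor, had 121, 118 and 135 in pdx1.3 roots, against 23.5, 29.1 and 40.4 in WT roots (log2 change 1.60, SE 0.19, adjusted p = 0.0012). Here the array labelled pdx1.3 root 3 was the highest of the 6, with a share of 109.8%. JAZ2 had 554, 606 and 445 in pdx1.3 roots, against 217, 227 and 178 in WT roots (log2 change 1.3, adjusted p = 0.00225), and JAZ3 had 514, 519 and 459, against 284, 286 and 292 (log2 change 0.76, adjusted p = 0.00943).

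AOS, allene oxide synthase of jasmonate synthesis, had 117, 131 and 85.6 in pdx1.3 roots, against 27.2, 66.1 and 46.6 in WT roots (log2 change 1.05, adjusted p = 0.0449). It lost its call without the first or second mutant root or the first or the third WT root (adjusted p 0.118 to 0.207), and JAZ3 without the first or second mutant root or the second WT root (0.052 to 0.0687). The groups did not overlap, but the third mutant root stood 62.0% of the way. JRG21, a jasmonate-induced oxygenase that inactivates the hormone and was not in the list, had 104, 126 and 83.2 in pdx1.3 roots, against 2.91, 2.01 and 2.75 in WT roots, where it was absent on all 3 arrays. Against the same kind of bound it was at least 10-fold higher in pdx1.3 roots (fitted log2 change 2.68, adjusted p = 1.29e-05). CYP94B1, a P450 that oxidises the active jasmonate (log2 change 0.86), and its relative CYP94B2 (0.98) were called higher and are named after their values were seen. JAZ1 (1.12) and MYC2 (0.74), the best known regulators, did not pass (adjusted p = 0.0702 and 0.139). In leaves 9 of the 24 were called, against 7.22% of all probe sets there.

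Several genes that respond to a low sulphur supply stood among the called rises. SULTR2;1, a sulphate transporter of root vascular tissue named after its values were seen, had 666, 554 and 298 in pdx1.3 roots, against 114, 168 and 176 in WT roots (log2 change 1.58, SE 0.24, adjusted p = 0.00734). At 48.0% of that change, the third mutant root stayed above all WT roots. SDI1, which represses glucosinolate synthesis when sulphur is scarce, had 1644, 1643 and 1340 in pdx1.3 roots, against 659, 585 and 386 in WT roots (log2 change 1.51, SE 0.29, adjusted p = 0.0297). GGCT2;1, which breaks down glutathione, had 865, 653 and 620 in pdx1.3 roots, against 322, 246 and 164 in WT roots (log2 change 1.52, SE 0.23, adjusted p = 0.00631). The third root showed 81.8% of the SDI1 change and 83.1% of the GGCT2;1 change. The SDI1 call was lost without the first or second mutant root or the second or the third WT root (adjusted p 0.0931 to 0.155), and those of SULTR2;1 and GGCT2;1 held without any 1 array.

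Most of the sulphur genes did not pass the test. SDI1 and GGCT2;1 were the 2 called higher of 24 measured genes of sulphur reduction and deficiency (background 0.486% of loci higher), with a median log2 change of 0.28 and 19 above 0. The mutant roots lay above WT without overlap in 10 of them (background 5.77%) and below in 0 (background 5.32%). BGLU28 (1.57, adjusted p = 0.125) and LSU1 (1.09, adjusted p = 0.753), further markers of sulphur limitation, were not called. SULTR2;1 was the 1 called of 12 sulphate transporters (median log2 change 0.10). Without the third mutant root, 3 sulphur reduction genes were called higher and 1 lower, and 3 transporters were called higher (background 0.784% higher and 0.882% lower). SULTR2;1 rose in leaves as well (log2 change 1.3, adjusted p = 0.00606), whereas GGCT2;1 had a leaf change of −0.10 and differed between organs (adjusted p = 0.0249).

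**Figure D3:**
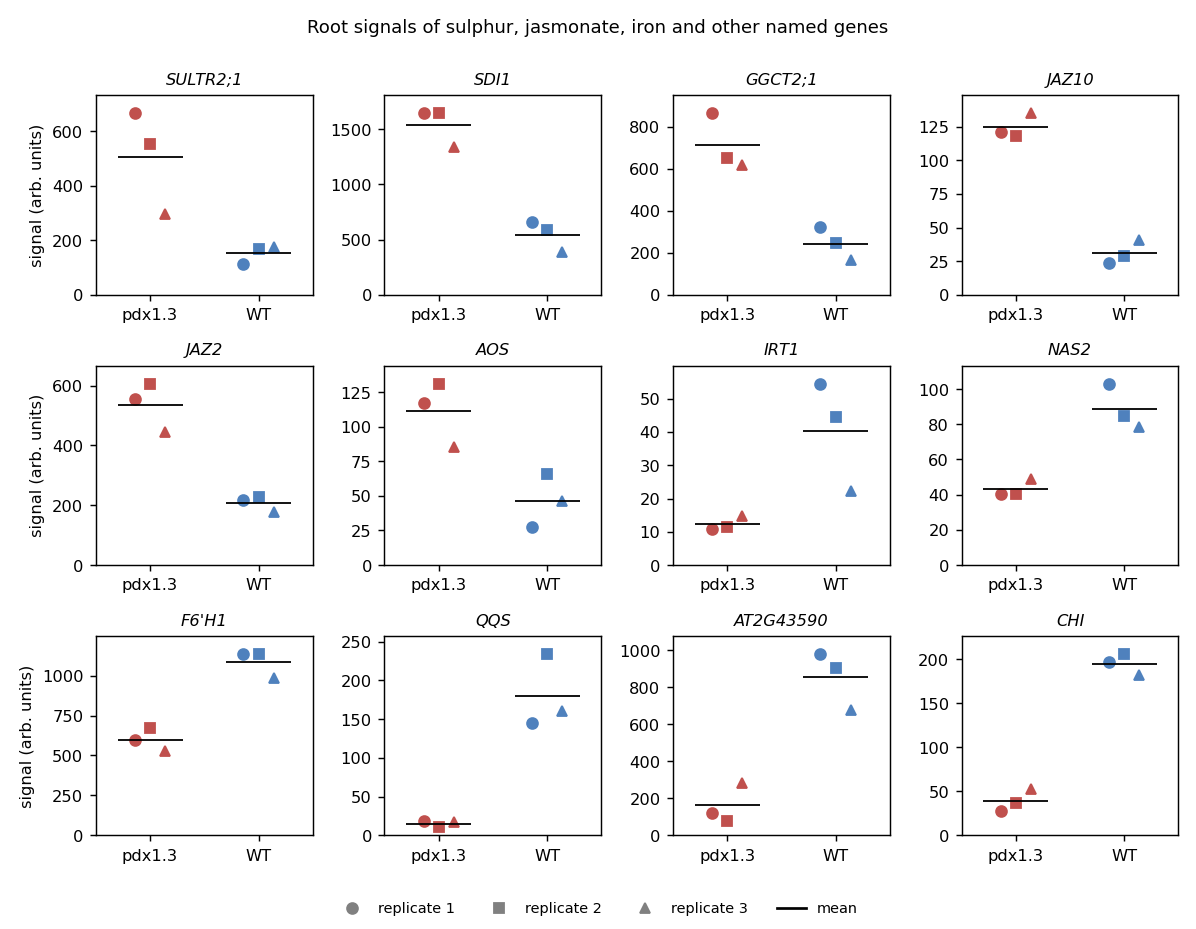
Signal (linear, axes from 0) of 12 genes in each root array, pdx1.3 left and WT right, with circle, square and triangle for replicates 1, 2 and 3 and a line at the mean of 3. SULTR2;1, SDI1, GGCT2;1, JAZ10, JAZ2 and AOS are higher and IRT1, NAS2, F6'H1, QQS, AT2G43590 and CHI lower in pdx1.3 roots, with no overlap in any panel.

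Called iron acquisition genes stood on the lower side. Arabidopsis roots reduce iron at the surface, import it with IRT1, and secrete coumarins that mobilise it, a programme driven by the factor FIT. Of 38 measured iron genes, 4 were called lower and none higher (background 0.331% of loci lower), the median log2 change was −0.16, and the mutant roots lay below WT without overlap in 13 (background 5.32%) and above it in 1. None was called in a fit of the 6 root arrays alone. Without the third mutant root, 4 were called lower (background 0.882%) and 1 higher. IRT1, the main iron importer, had 10.9, 11.3 and 14.8 in pdx1.3 roots, against 54.5, 44.4 and 22.2 in WT roots (log2 change −0.95, SE 0.17, adjusted p = 0.0257). Nicotianamine synthase NAS2, which makes an iron chelator, had 40.4, 40.3 and 49.1 in pdx1.3 roots, against 103, 84.7 and 78.7 in WT roots (log2 change −0.82, adjusted p = 0.0265). F6'H1, the first enzyme of coumarin synthesis, had 599, 669 and 531 in pdx1.3 roots, against 1132, 1134 and 987 in WT roots (log2 change −0.84, adjusted p = 0.00631).

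These iron changes held in the third mutant root as well. Its share was 81.8% for IRT1, 76.7% for NAS2 and 132.6% for F6'H1. CYP82C4, a P450 of coumarin oxidation, had 0.529, 0.0853 and 0.156 in pdx1.3 roots, where it was absent on all 3 arrays, against 3.87, 8.47 and 15.6 in WT roots, with a fitted log2 change of −0.61 (adjusted p = 0.0316). The WT mean lies within the range of signals called absent, so no fold is given. That call was lost without the third mutant root (adjusted p = 0.0544). It was also lost without the first or second mutant root or the second WT root (0.106 to 0.135). IRT1 and NAS2 lost their calls without the first or second mutant root or the first or second WT root (adjusted p 0.0784 to 0.144 and 0.0912 to 0.146), and F6'H1 kept its call without any 1 array (highest 0.0468). FIT itself had a log2 change of −0.46 and was not called (adjusted p = 0.215). VTL5, a vacuolar iron transporter-like gene chosen after its values were seen, had 76.3, 61.6 and 246 in pdx1.3 roots, against 250, 365 and 296 in WT roots, a change called only without the third mutant root (adjusted p = 0.000915).

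**Figure D4:**
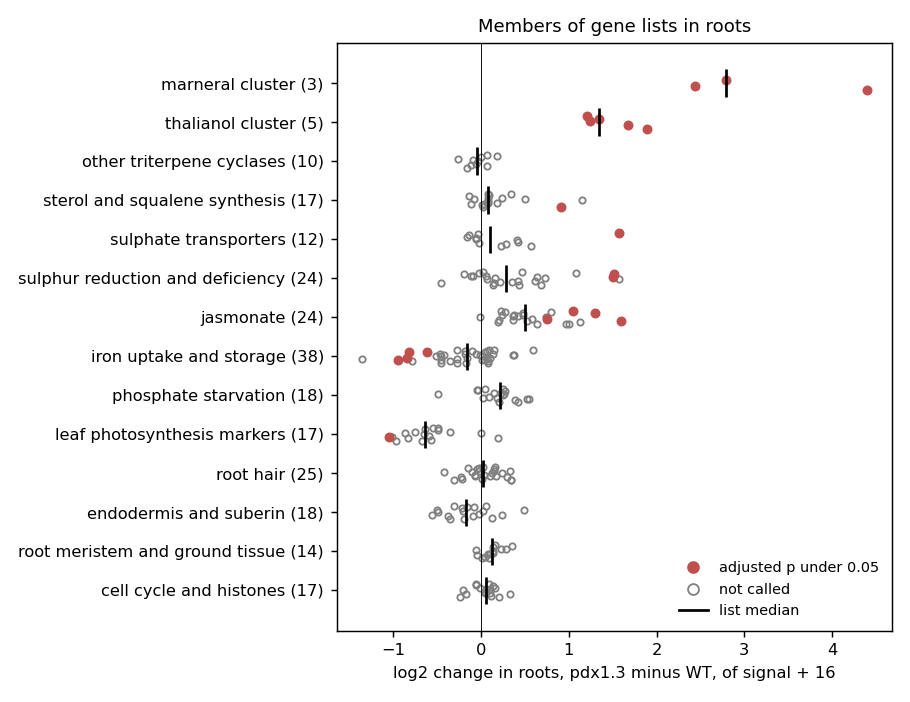
Log2 change (pdx1.3 minus WT roots) of the measured members of 14 gene lists, 1 point per locus, with filled red points for called members, open grey points for the others and a bar at the list median. The marneral and thalianol lists lie wholly to the higher side, jasmonate mostly so, and the leaf photosynthesis markers mostly to the lower side.

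The largest fall among called probe sets was of QQS, an Arabidopsis-specific gene that regulates carbon and nitrogen allocation to starch and protein. It had 18.7, 10.4 and 16.8 in pdx1.3 roots, against 145, 234 and 161 in WT roots (log2 change −2.63, SE 0.17, adjusted p = 1.29e-05). The third mutant root fell as far as the others (share 95.6%), and QQS fell in pdx1.3 leaves too (log2 change −2.16). DIN10, a raffinose synthase-like gene induced by darkness and sugar starvation, had 241, 299 and 284 in pdx1.3 roots, against 831, 691 and 823 in WT roots (log2 change −1.46, SE 0.14, adjusted p = 0.000274). It also fell in leaves (log2 change −1.08). QQS and DIN10 were the 2 called of 21 dark and sugar starvation genes (background 0.331% of loci lower), whose median log2 change was −0.32. Without the third mutant root 4 were called lower (background 0.882%).

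Chitinases, which cut a fungal wall polymer, and a lectin stood among the other large called falls. AT2G43590, a chitinase, had 123, 78.1 and 285 in pdx1.3 roots, against 978, 903 and 675 in WT roots (log2 change −2.44, SE 0.33, adjusted p = 0.00334). A share of 52.0% was seen in the third mutant root. CHI, another chitinase, had 27.9, 36.5 and 52.6 in pdx1.3 roots, against 197, 206 and 182 in WT roots (log2 change −1.96, adjusted p = 0.000561, share 75.9%). The lectin AT3G16530 had 31.5, 15.1 and 83.2 in pdx1.3 roots, against 134, 213 and 232 in WT roots (log2 change −1.95, adjusted p = 0.0462), and lost its call without any 1 array but the third mutant root (adjusted p 0.0745 to 0.21). CHI had a leaf change of 0.73 that was not called, and differed between organs (adjusted p = 0.00114). AT2G43590 (−1.44) and AT3G16530 (−1.62) fell in leaves as well.

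AT4G07820, of the pathogenesis-related protein family, had 22.2, 19.3 and 29.3 in pdx1.3 roots, against 181, 129 and 98.1 in WT roots (log2 change −1.91, adjusted p = 0.000208, share 84.9%). PER4, a peroxidase, had 6.62, 5.15 and 21.7 in pdx1.3 roots, against 57.8, 110 and 87.1 in WT roots (log2 change −1.91, adjusted p = 0.0119). DIR1, a lipid transfer protein of systemic defence signalling, had 17.6, 6.46 and 33.4 in pdx1.3 roots, against 64.7, 122 and 111 in WT roots (log2 change −1.75, adjusted p = 0.00809). The third mutant root lay nearest to WT in PER4 and DIR1 (shares 63.9 and 58.4%). PER4 lost its call without the first or second mutant root or the second WT root (adjusted p 0.0689 to 0.079), and DIR1 without the second WT root (0.0507). AT1G51830, a protein kinase, had 61.6, 50.8 and 164 in pdx1.3 roots, against 289, 330 and 314 in WT roots (log2 change −1.74, adjusted p = 0.0101), and the third mutant root stood at 39.5%. Its call was lost without the first mutant root (0.0717) or the second WT root (0.0572).

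ALMT1, the malate channel with which roots detoxify aluminium, had 37.9, 23 and 162 in pdx1.3 roots, against 271, 356 and 337 in WT roots (log2 change −2.22, SE 0.40, adjusted p = 0.0232). Only 31.9% of the change was seen in the third mutant root, the lowest share among the 12 strongest called falls that the naming rule took, and without it the adjusted p was 2.43e-05. Without any other 1 root array the call was lost (adjusted p 0.0637 to 0.145). The cell wall enzyme AT5G14650, a polygalacturonase, had 70.2, 88.5 and 84.7 in pdx1.3 roots, against 340, 329 and 217 in WT roots (log2 change −1.66, adjusted p = 0.000368, share 95%). RALFL27, a small secreted peptide, had 81.7, 69.5 and 156 in pdx1.3 roots, against 373, 355 and 247 in WT roots (log2 change −1.57, adjusted p = 0.00513, share 51.4%), and was not called with the 6 root arrays alone (adjusted p = 0.0782). GSTF14, a glutathione transferase, had 80, 95.5 and 52.2 in pdx1.3 roots, against 300, 232 and 219 in WT roots (log2 change −1.55, adjusted p = 0.000935), with the third mutant root lowest of all (share 144.5%). NRT1.5, which loads nitrate into the xylem and was named after its values were seen, had 505, 583 and 647 in pdx1.3 roots, against 1073, 1015 and 1203 in WT roots (log2 change −0.91, adjusted p = 0.0221). It was the 1 called of 18 nitrate genes (background 0.331% of loci lower). It kept its call only without the third mutant root (adjusted p 0.0666 to 0.145 without another array).

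By family, the cytochromes P450 held the most calls, 11 higher and 2 lower of 198 measured, against a background of 0.486% of loci higher and 0.331% lower. The median of the family was 0.01. Of the 11, 4 belong to the 2 triterpene clusters. The others, named after their values were seen, were CYP81D1 (log2 change 1.69), CYP716A2 (1.32), CYP81F1 (1.08), CYP94B2, CYP707A1 (0.94), CYP51G2 (0.92) and CYP94B1. Of these 7, CYP716A2 and CYP94B2 kept their calls without any 1 array. CYP81F1 lost its call without any 1 array but the third mutant root (adjusted p 0.0933 to 0.153), and CYP94B1 without the first mutant root or the first or the third WT root (0.0874 to 0.108). The first and second mutant roots were each needed for the calls of CYP81D1, CYP707A1 and CYP51G2, as were the first and the third WT roots for CYP81D1 (adjusted p 0.052 to 0.075 without 1 of them), the second and the third for CYP707A1 (0.119 to 0.192) and the first and second for CYP51G2 (0.106 to 0.173). CYP705A20 (−0.92) was the second P450 called lower beside CYP82C4. Leaving out the third mutant root, 15 were called higher and 6 lower (background 0.784% of loci higher and 0.882% lower).

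Peroxidases gave 2 calls higher and 2 lower of 60 measured (background 0.486% higher and 0.331% lower). None was called without the first mutant root. The mutant roots lay below WT without overlap in 15 of the 60 (background 5.32%) and above it in 4 (background 5.77%). Without the third mutant root, 1 was called higher and 5 lower (background 0.784% higher and 0.882% lower). Beside AT1G49570 and PER4, AT2G41480 had 129, 120 and 181 in pdx1.3 roots, against 34.4, 76 and 65 in WT roots (log2 change 1.12, adjusted p = 0.0297), and AT5G64110 had 15.9, 10.9 and 22.5, against 52.1, 58.6 and 32 (log2 change −0.96, adjusted p = 0.0297). AT2G41480 lost its call without any 1 array but the second WT root (adjusted p 0.0557 to 0.102, and 0.0587 without the third mutant root), and AT5G64110 without the first or second root of either genotype (0.115 to 0.152). Of 133 leucine-rich repeat kinases 4 were called lower (background 0.331%) and none higher, and with a constant of 1 none was called. The 4 were AT1G05700 (24.2, 16.5 and 22.2 in pdx1.3 roots, against 101, 69.2 and 59.9 in WT roots, log2 change −1.31), AT5G59680 (−1.15), AT5G49770 (−0.86) and AT2G28970 (−0.62), the last of which was not called with the 6 root arrays alone (adjusted p = 0.127). AT5G59680 lost its call without any 1 array but the third mutant root (adjusted p 0.0729 to 0.172), and AT5G49770 without the first mutant root (0.11) or the second WT root (0.0784). The family was read from the annotation text, which calls AT1G51830 only a kinase, so that gene is not among the 133. Of 106 arabinogalactan proteins and extensins 2 were called lower (background 0.331%), and none with a constant of 1 or with the 6 root arrays alone. The 2 were AGP30, a root cell wall glycoprotein (23.7, 14.5 and 36 in pdx1.3 roots, against 73.3, 75.8 and 87.4 in WT roots, log2 change −1.25), and AT1G26240 (7.4, 11.5 and 6.91, against 22.1, 28.3 and 34.6, log2 change −0.84).

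Transcription factors gave few calls, and no WRKY or MYB factor was called with a constant of 1 or with the 6 root arrays alone. The background for the counts in these families was 0.486% of loci called higher and 0.331% called lower. WRKY54 had 74.9, 118 and 56.6 in pdx1.3 roots, against 26.7, 25.5 and 28.1 in WT roots (log2 change 1.17, adjusted p = 0.0462), and WRKY38 had 69.9, 76.5 and 63.3, against 15, 34.8 and 29.9 (log2 change 1.04, adjusted p = 0.0112). They were the 2 called of 62 WRKY factors, a family known from defence, whose median log2 change was −0.04. WRKY38 lost its call without the first or second mutant root (adjusted p = 0.0589 and 0.0558), and WRKY54 without any 1 array but the third mutant root (0.123 to 0.186). The 2 called of 56 bHLH factors were absent in WT roots: AT4G37850 was at least 1.39-fold higher in pdx1.3 roots (fitted log2 change 0.81, adjusted p = 0.00228), and for AT2G22750, which was as dim in the mutant as signals called absent, only the fitted log2 change of 0.43 is given (adjusted p = 0.0462). The 2 called of 123 MYB factors, MYB39 (log2 change −0.51) and MYB37 (−0.38), were lower, and MYB37 was absent in both genotypes. AT2G22750 and MYB37 lost their calls without any 1 array but the third mutant root (adjusted p 0.106 to 0.19 and 0.0651 to 0.187), and MYB39 without the first mutant root (0.0634) or the second WT root (0.0507). No call was made among 83 NAC and 78 AP2/ERF factors.

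Markers of leaf photosynthesis, a tissue that a root sample should hold little of, moved with genotype. The signals of 17 such markers summed to 1552, 1434 and 2368 in pdx1.3 roots, against 2685, 2985 and 3560 in WT roots. All mutant roots lay below all WT roots, with the third between. In leaves the sum was 69867 to 89848, and no marker was at 0 in any root array. Of the 17, 1 was called lower (background 0.331%) and none higher in roots, LHCB5, a light-harvesting protein named after its values were seen (167, 156 and 272 in pdx1.3 roots, against 407, 367 and 473 in WT roots, log2 change −1.04, adjusted p = 0.0229). Without the third mutant root 9 were called lower (background 0.882%), and the median log2 change was −0.64 with it and −0.79 without it. Called falls of FBA2 (log2 change −1.25), APE2 (−0.90) and PSBQ-2 (−0.84), chloroplast proteins named after their values were seen, lie beside this. The calls of LHCB5, APE2 and PSBQ-2 were lost without any 1 array but the third mutant root (adjusted p 0.0572 to 0.155, 0.0531 to 0.207 and 0.0606 to 0.16), and that of FBA2 without the first or second mutant root or the second or the third WT root (0.0595 to 0.102). In tissue of many cell types, fewer cells of a type and less RNA per cell cannot be told apart, and the part that leaf or green tissue has in any result here was not tested.

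Root identity markers moved less. The summed signal of 12 root organ markers was 6624, 6101 and 6703 in pdx1.3 roots, against 8046, 6532 and 6357 in WT roots, and 705 to 1121 in leaves, and none was at 0 in any root array. IRT1 was the 1 called among them (background 0.331% of loci lower). Root hair genes (25 measured, median log2 change 0.02), meristem and ground tissue regulators (14, median 0.12), endodermis and suberin genes (18, median −0.18) and cell cycle genes and histones (17, median 0.05) held no call. Among the 18 endodermis and suberin genes, the mutant roots lay below WT without overlap in 5 (background 5.32%) and above it in 1 (background 5.77%). Summed signals overlapped between the genotypes for the root hair, endodermis and cell cycle lists. For the meristem list the sum was 841, 868 and 807 in pdx1.3 roots, against 699, 739 and 834 in WT roots, which overlap at the third replicates.

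Many pathways gave no call in roots. Among them were 18 phosphate starvation genes (median log2 change 0.22), 15 ammonium and 13 potassium genes, 18 hypoxia genes, the auxin lists (14, 15 and 20 genes), 20 cytokinin and 20 ethylene genes, 20 aliphatic glucosinolate, 20 flavonoid and 21 phenylpropanoid genes, 12 inositol and raffinose genes, 13 proline and polyamine genes, 14 heat shock and 13 clock genes, 26 aquaporins, 31 expansins, 33 xyloglucan enzymes and 152 cytosolic ribosomal proteins. These missed calls do not show that the genes were unchanged. Of 41 enzymes that bind pyridoxal phosphate, the form of the vitamin used as cofactor, 1 was called higher (background 0.486% of loci). It was the tyrosine aminotransferase TAT3 (log2 change 1.43, named after its values were seen). That call was lost without any 1 array but the second mutant root (adjusted p 0.0558 to 0.153). Of 28 genes of abscisic acid, drought and cold, 1 was called higher in roots (background 0.486% of loci), CYP707A1, which breaks down the hormone. In leaves 24 of the 28 were called, against 7.22% of all probe sets there. The organs differed in 13 of the 28, against 1.87% of all probe sets.

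Some families were called mainly once the third mutant root was left out. Of 44 glutathione transferases 1 was called lower, GSTF14 (background 0.331%), and 6 were called lower without that array (background 0.882%). The following, chosen after their values were seen, show how: GSTU24 had 218, 204 and 573 in pdx1.3 roots, against 497, 598 and 616 in WT roots (adjusted p = 0.374, and 0.00376 without the third mutant root), and GSTU25 had 182, 129 and 426, against 380, 436 and 328 (0.585, and 0.0083). In both genes the third mutant root lay inside the WT range. XTH4, a xyloglucan enzyme of the growing cell wall, had 211, 161 and 377 in pdx1.3 roots, against 507, 495 and 510 in WT roots (adjusted p = 0.0666, and 0.00168). There the third root lay between. The copper/zinc superoxide dismutase CSD1 had 294, 411 and 801 in pdx1.3 roots, against 899, 885 and 1185 in WT roots (adjusted p = 0.25, and 0.0222).

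Part of the root changes differed from those in leaves. Of the 184 root calls, 27 (14.7%) were also called in leaves, where 1642 probe sets (7.22%) were called, and 25 of the 27 went in the same direction. The 27 are 1.64% of the leaf calls. A difference between the organs was called for 80 of the 184 (1.87% of all probe sets had such a call), and for the other 104 it was not shown. The 184 were selected by their root change, which is part of that difference, so these shares are not comparable. All 8 marneral and thalianol genes differed between organs, with none of the marneral genes called in leaves and only THAH called there among the thalianol genes (log2 change 0.52, adjusted p = 0.0333). Genes that changed in both organs and whose organ difference was not called included QQS, DIN10, AOS, JAZ3 and SULTR2;1.

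**Figure D5:**
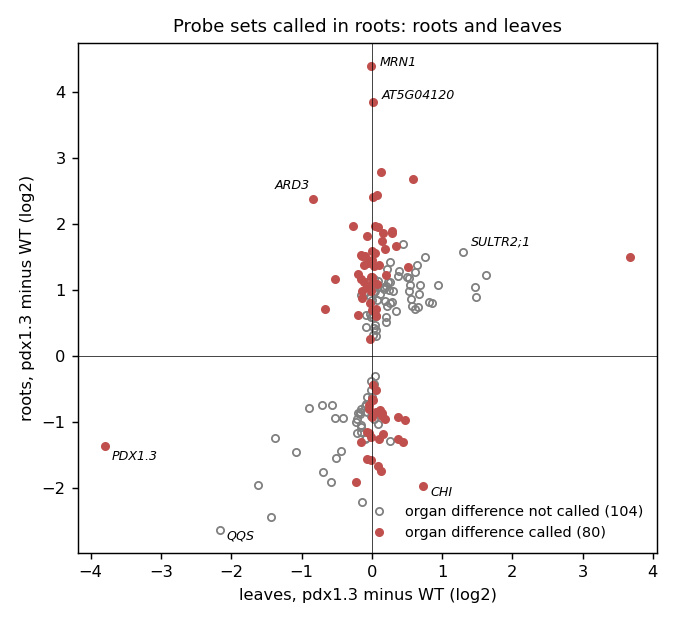
Log2 change (pdx1.3 minus WT) in roots on the vertical axis against that in leaves on the horizontal axis for the 184 probe sets called in roots, 1 point each. The 80 filled red points have a called difference between organs and lie near 0 in leaves for the most part, and the 104 open grey points do not have one.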

How the data were processed

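RNA from leaves and roots was measured on 12 arrays, of which the 6 root arrays carry the comparison. Groups and replicate numbers come from the sample titles. Per the submitters' processing notes the authors used GCOS and its MAS5 algorithm (version not given in the sources used). The deposited values are linear signal intensities, with each array scaled to a 2% trimmed mean of 100 (checked on the values), beside present, marginal and absent calls. Per the file headers, deposited columns also hold signed fold changes (a score), unadjusted p-values on log2 signals, and quality values such as the percent present and 3'/5' ratios. The files name no genome build, so no coordinates are given.

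Intensities were used as deposited, with 16 added before log2, which understates changes of dim genes. Group means of all 12 arrays were fitted in limma 3.58.1 (R 4.3.3) with an intensity-dependent variance, and the procedure was tested on simulated data. The simulated noise was drawn separately for each probe set and array, so a shift of 1 array across many genes was not simulated. The contrast was pdx1.3 minus WT roots. Benjamini-Hochberg adjustment ran over 22746 probe sets (64 controls left out), and a probe set was called at an adjusted p under 0.05. Of these, 21643 name 1 locus, 1098 several and 5 none, and only the first kind was named. Symbols come from a RefSeq gene table of TAIR10.1, which holds 21376 of them. Promoter motifs were not analysed here. The number of arrays limits the precision.

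The probe set of highest mean stood for a locus. Lists (39) and families (19) are described by counts and medians, with no list test. Members and lists were chosen with earlier results of these data known. By rule the text names PDX1.3, all vitamin B6, marneral and thalianol genes, up to 4 called members of smallest p from each list or family with at least 2 called, and the 12 strongest changes each way by log2 among calls of a single locus whose genotypes do not overlap and of which 1 group mean exceeds the median signal. A fold against a group absent on all 3 arrays is a lower limit on geometric means, set per array by the higher of the probe set's own signal and the 95th percentile of signals called absent, a bound chosen after seeing the data. No fold is given where it is under 1. Alternatives were other scalings, constants of 1 and 64, filters on dim probe sets, the second deposited table, other variance models, an actin covariate, a replicate block, the root arrays alone and fits without 1 array.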

Additional observations from a re-analysis of the deposited data

Results flagged for a closer look

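For 34 of the named genes the change between genotypes differed between the organs by the interaction test of the fit (limma, adjusted p under 0.05). The values here are the log2 change in roots minus that in leaves, and a positive value means a higher one in roots. Each was tested at the level of single genes, with 425 such calls over the array (1.87%). All 34 were called in roots, and the root change is part of the difference. Their number is therefore not comparable with the share over the array.

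The triterpene genes had a higher log2 change in roots than in leaves, by 4.41 for MRN1, 2.67 for CYP705A12, 2.37 for CYP71A16, 1.60 for THAS1, 1.33 for THAD, 0.83 for THAH, 1.2 for THAA1, 1.43 for THAA2 and 1.71 for the thalianol reductase gene AT1G66800. Other rises with a greater change in roots were AT5G04120 at 3.83, ARD3 at 3.21, AT5G41280 at 2.39, the peroxidase AT1G49570 at 2.23, the jasmonate oxygenase JRG21 at 2.09, AT4G31330 at 1.88, GGCT2;1 at 1.62, AT5G19110 at 1.59, JAZ10 at 1.59, WRKY38 at 1.12 and the bHLH factor AT4G37850 at 0.83. ARD3 was called in opposite directions in the organs.

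Among the falls, the difference was −2.69 for the chitinase CHI, −1.88 for the kinase AT1G51830, −1.75 for the polygalacturonase AT5G14650, −1.69 for AT4G07820, −1.56 for RALFL27 and −1.48 for GSTF14. It was −1.44 for the peroxidase AT5G64110, −1.35 for AGP30, −1.16 for the kinase AT1G05700, −0.93 for NAS2, −0.92 for AT1G26240, −0.90 for F6'H1 and −0.57 for MYB39. PDX1.3 stood apart at 2.43, since its fall was smaller in roots (log2 change −1.37) than in leaves (−3.80).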

How the results depend on the processing

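The number of arrays limits the calls, and all counts were made at an adjusted p under 0.05 with limma. Counts are given as called, with higher, lower, at least 2-fold and organ-difference calls after them where they moved by over 1.5 times. The count of 184 became 83 with a constant of 1 (47 higher, 36 lower, 248 organ differences), and the 2-fold count was 45 with a constant of 64. It was 61 with the 6 root arrays alone (42, 19, 2-fold 50), and 318 without the 2 root arrays numbered 3 (172 lower, 172 at least 2-fold). The present-call filter gave 115 lower. Fits without 1 array gave 75 to 384 calls, 47 to 179 higher, 25 to 205 lower, 57 to 196 at least 2-fold and 137 to 554 organ differences. The authors' deposited p-values were under 0.05 for 1053 probe sets and for 0 after Benjamini-Hochberg adjustment (smallest 0.284), against 1559 with an unadjusted p under 0.05 here. Quantile normalization, array centring, the second deposited table, the robust and trend-free variance models and the actin covariate kept each of these counts within 1.5 times.

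Replicate numbers did not pair the samples: same-numbered arrays correlated in their deviations from the group means at −0.072, −0.251 and −0.122. With the replicate block, 89 probe sets were called (55 higher, 34 lower, 135 organ differences), and with the block on the 6 root arrays alone 27 (22 higher, 5 lower, 26 at least 2-fold). PDX1.3 kept its log2 change of −1.37 there but its adjusted p was 0.054. It was called in every other fit, with a log2 change of −1.50 (constant of 1) to −1.08 (constant of 64), and −1.48 to −1.27 without 1 array. Of 53 other called named genes, 30 were called in all 6 fits without 1 array, 37 with the block, 27 with the root arrays alone, and 14 under every alternative that held them. The 16 not called with the block (adjusted p 0.0615 to 0.171) were AT3G16530, RALFL27, PER4, IRT1, NAS2, CYP82C4, AOS, JAZ3, AT5G64110, AT2G41480, AT5G59680, AT5G49770, AT2G28970, WRKY54, MYB39 and AT2G22750. Over 20 alternatives, called members numbered 2 to 3 for marneral, 2 to 5 for thalianol, 2 to 5 for jasmonate, 1 to 4 for sulphur reduction, 0 to 6 for iron, 2 to 4 for dark and sugar starvation, 5 to 21 for P450s, 0 to 8 for peroxidases, 0 to 7 for leucine-rich repeat kinases, 0 to 3 for arabinogalactan proteins and extensins, for WRKY and for bHLH factors and 0 to 2 for MYB factors. Uncalled genes with log2 changes near 0 turned sign: PDX2 lay at −0.23 to 0.0040, PDX3 at −0.15 to 0.066 and PLR1 at −0.11 to 0.019 in fits without 1 array, and PDX3 at 0.094 without the 2 arrays numbered 3. The cause of these moves was not tested.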
